A study of Mus musculus with 33 samples.

Results

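The endothelial and blood-brain barrier genes described here are 10 genes, *Cldn5*, *Pecam1*, *Cdh5*, *Flt1*, *Tek*, *Slco1a4*, *Abcb1a*, *Mfsd2a*, *Apold1* and *Tns2*. They were chosen by symbol from a list, and 10 of the 41565 named genes of the deposited expression table carried these symbols. The table covers bulk RNA-seq of 2 dissected parts of the mouse hypothalamus, the posterior hypothalamus (PH), which holds metabolic and reproductive centers, and the preoptic area (POA), which holds temperature-regulating neurons. All mice were WT C57BL/6 females without a transgene, and the question was how the hypothalamus changes with time after the ovaries are removed (ovariectomy, OVX). Intact mice were killed in diestrus before any OVX, and the others were killed 14 days or 4 months after bilateral OVX done at 3 to 4 months of age. Controls are titled sham in the labels but described as intact elsewhere, and they are called intact here. The PH gave 4 intact, 6 14-day and 6 4-month libraries, and the POA gave 5, 6 and 6, which makes 33 libraries. Mice killed 4 months after OVX were also older than the intact mice, so time after OVX and age cannot be told apart at 4 months.

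Brain capillaries are lined by endothelial cells that form the blood-brain barrier. Tight and adherens junctions seal the clefts between neighboring cells, receptors for vascular growth factors and angiopoietins set growth and quiescence, and polarized transporters decide which molecules cross. The barrier also depends on low transcytosis and on signals from pericytes, astrocytes and Wnt ligands. Estrogen is known to act on endothelial cells, and the hypothalamus holds both tight barrier vessels and, at the median eminence, fenestrated ones.

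Values are the normalized signal deposited by the authors, on a linear scale on which genes without measurable expression lie at 22.1 rather than at 0. The values are not reads, so the sequencing depth is unknown and no counting error can be given. The PH 14-day replicate 5 stood apart, with the highest sum of values and an SV1 of 0.785. SV1 is the surrogate variable, a per-library score of variation apart from group, estimated from the values and fitted as a covariate. Libraries of every group came from 2 batches named in the labels, with 2 or 3 libraries of a group in each. In the POA, SV1 followed batch and ran from 0.186 to 0.352 in batch 1 and from -0.322 to -0.125 in batch 2. In the PH it ran from -0.022 to 0.194 in batch 1. PH batch 2 libraries lay between -0.311 and -0.161, except the 14-day replicate 5 at 0.785. That library had by far the largest SV1 of the PH, so SV1 there does not stand for batch alone. The mean log2 values of the PH and the POA differed by a median of only 0.03 over the genes tested, and no levels are compared between the regions. All 10 genes reached 2 times the floor in every library, as did 25 of the 26 other endothelial identity genes found in the table. Neuronal, astrocyte and oligodendrocyte markers, 10 of 10 in each list, also did so. The hypothalamic neuropeptide gene *Pmch* reached it in 16 of 16 PH and 17 of 17 POA libraries, as did *Gal* and *Agrp*. *Hcrt* reached it in 16 of 16 PH and 16 of 17 POA libraries. The presence of these genes in both regions does not tell the 2 dissections apart. In such bulk tissue, fewer endothelial cells and less RNA per endothelial cell cannot be told apart. Differences were tested with limma on log2 values with SV1 as covariate, and a gene was called at a Benjamini-Hochberg adjusted *P* under 0.05 over all genes tested. The labels do not say whether each library is a different mouse, so *P* values measure the spread between libraries.

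None of the 10 genes was called in any of the 9 comparisons. Against intact, the largest differences were seen 4 months after OVX in the PH, for *Apold1* (log2 fold change 0.88 ± 0.20, SE), *Tns2* (0.60 ± 0.11) and *Flt1* (0.59 ± 0.14). In the POA at 4 months the largest was *Flt1* (0.41 ± 0.09). The median log2 fold change of the 10 genes against intact in the PH was 0.15 at 14 days and 0.25 at 4 months. The corresponding POA medians were 0.03 and 0.13. Over all genes tested, these medians lay between -0.0105 and -0.0018. The comparisons with intact within a region share the same intact libraries.

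The background of calls was low in this table. In the PH, 0% of 21998 genes tested were called at 14 days against intact, 0.0318% at 4 months against intact and 0.00909% at 4 months against 14 days. In the POA, the shares of 21366 genes tested were 0.00468%, 0.0936% and 0.0281%. At an unadjusted *P* under 0.05, 2 of the 10 genes passed at 14 days in the PH, *Cldn5* and *Cdh5*, both higher than in intact mice, where 3.04% of all genes passed in either direction. At 4 months in the PH, 5 of the 10 passed, *Tns2*, *Apold1*, *Flt1*, *Cdh5* and *Pecam1*, all higher, where 6.07% of all genes passed. Between 14 days and 4 months in the PH, 3 passed, *Apold1*, *Tns2* and *Flt1*, all higher at 4 months, where 4.09% passed. In the POA, 2 passed at 14 days, *Slco1a4* and *Mfsd2a*, both lower (background 6.14%), 2 at 4 months, *Flt1* higher and *Slco1a4* lower (background 8.5%), and 2 between 14 days and 4 months, *Flt1* and *Apold1*, both higher at 4 months (background 5.11%). These are counts before correction, and the 10 genes share vessels and libraries.

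The junction and adhesion genes were the first group. *Cldn5* encodes claudin-5, the main sealing protein of brain endothelial tight junctions (GRCm39 chr16:18595597-18597012, plus strand). In the PH its signal was 438, 729, 729 and 697 in the intact libraries, lay between 318 and 1186 at 14 days with a median of 668, and lay between 552 and 1191 at 4 months with a median of 725. The 3 groups overlapped, with intact replicate 1 and the 14-day replicate 5 at the bottom of their groups. The fitted log2 fold change was 0.38 ± 0.13 at 14 days and 0.17 ± 0.13 at 4 months, with adjusted *P* values of 1 and 0.898. The 14-day value depended on the covariate, since it was 0.10 without SV1, and it was 0.19 within batch 1 and 0.02 within batch 2. In the POA the intact libraries had 595, 723, 788, 817 and 886, and the OVX libraries lay between 559 and 1087 at 14 days and between 597.5 and 982 at 4 months. Again the groups overlapped, and the log2 fold changes were 0.18 ± 0.10 and 0.15 ± 0.10.

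*Pecam1* encodes the adhesion molecule CD31, found at endothelial cell borders (chr11:106543689-106641454, minus strand). Its PH signal in the intact libraries was 2083, 1147, 953 and 881, the widest spread in an intact group relative to its mean among the 10 genes. At 14 days it lay between 972 and 3016, the top being replicate 5, and at 4 months between 1109 and 1775. No 4-month library of the PH lay above all intact ones. The fitted log2 fold change at 4 months was 0.28 ± 0.12 (adjusted *P* = 0.795), with 0.05 within batch 1 and 0.36 within batch 2. In the POA the signal lay between 901 and 1404 in intact libraries, 949 and 1606 at 14 days and 941 and 1808 at 4 months, and the log2 fold changes were 0.02 ± 0.09 and 0.13 ± 0.09. As the plot of values by library shows, batch 1 libraries lay above batch 2 libraries in every group of the POA for this gene.

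*Cdh5* encodes VE-cadherin, the cadherin of endothelial adherens junctions (chr8:104828231-104871143, plus strand). In the PH the intact libraries had 559.7, 452.5, 601 and 500.5. At 14 days the signal ran from 585 to 795 with a median of 611, and at 4 months from 526 to 759 with a median of 647. At 14 days 5 of 6 libraries lay above all intact ones, and at 4 months 3 of 6 did. The log2 fold changes were 0.30 ± 0.12 and 0.28 ± 0.12 (adjusted *P* of 1 and 0.767). They were positive within both batches at both times, between 0.22 and 0.35. POA values were 0.03 ± 0.12 and 0.15 ± 0.12, with overlapping groups.

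**Figure D1:**
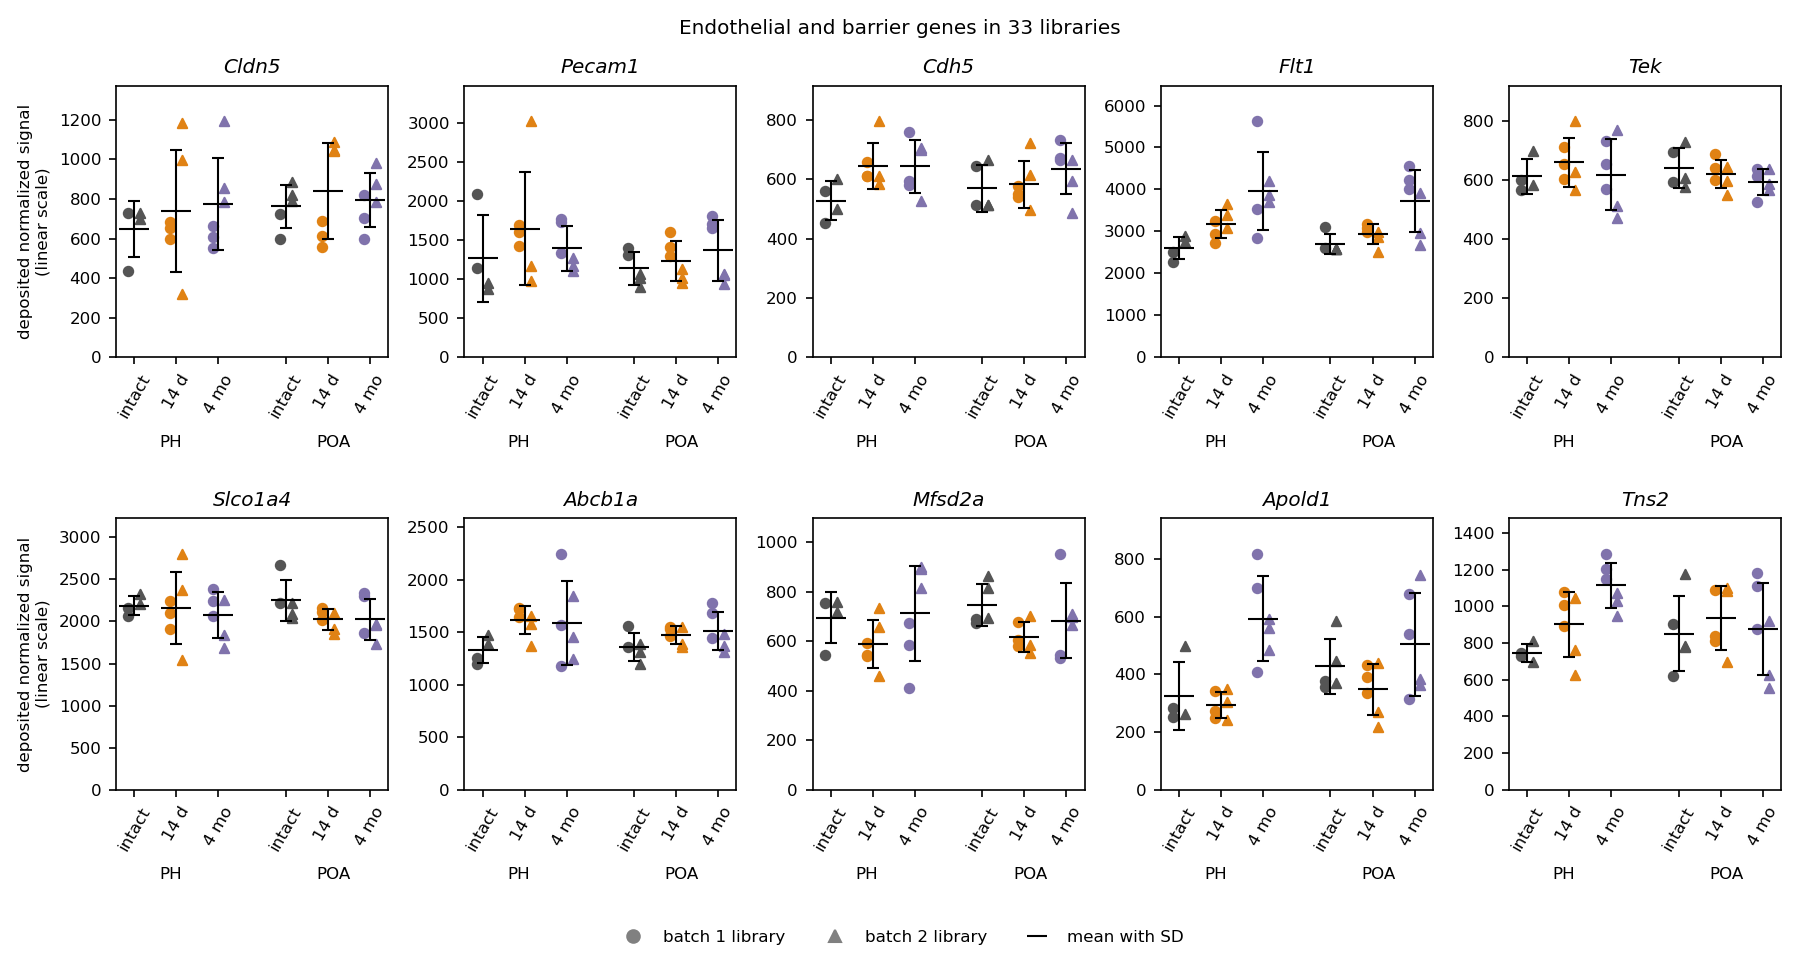
Deposited normalized signal (linear scale, y axes starting at 0) of the 10 genes in each of 33 libraries, by region and time after OVX (x axes), with circles for batch 1, triangles for batch 2 and the mean with SD in black. *Tns2* in the PH is the gene whose 6 4-month libraries, 948 to 1287, all sit above the 4 intact ones, 695 to 811, whereas most other groups overlap.

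The receptor genes came next. *Flt1* encodes VEGF receptor 1, which binds VEGF-A and placental growth factor and, in its soluble form, acts as a decoy (chr5:147498414-147662826, minus strand). The PH signal in the intact libraries was 2277, 2511, 2899 and 2741. It lay between 2737 and 3655 with a median of 3164 at 14 days, and between 2840.1 and 5622 with a median of 3783 at 4 months. At each time 5 of 6 libraries lay above all intact ones, and 4 of the 6 4-month libraries lay above all 14-day ones. At 14 days the log2 fold change was 0.26 ± 0.14, with an adjusted *P* of 1. At 4 months it reached 0.59 (95% interval 0.30 to 0.87, adjusted *P* = 0.225). The 4-month value was 0.68 within batch 1 and 0.48 within batch 2. It passed the threshold in limma when the 4-month replicate 2, the lowest of its group, was left out (0.68, adjusted *P* = 0.0455). Leaving out single libraries in turn gave limma adjusted *P* values up to 0.551, and all alternatives together gave values up to 1.

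In the POA the intact libraries had a *Flt1* signal of 2613.5, 3114, 2579, 2581 and 2576, so that 4 lay within a narrow band and replicate 2 stood above them. The 14-day libraries lay between 2511 and 3183 with a median of 2986, and the 4-month libraries between 2672 and 4562 with a median of 3968. At 4 months 4 of 6 libraries lay above all intact ones, and the 2 others lay within the range of the intact group. The log2 fold change was 0.09 ± 0.09 at 14 days and 0.41 at 4 months (95% interval 0.21 to 0.60, adjusted *P* = 0.146), with 0.58 within batch 1 and 0.29 within batch 2. Without the 4-month replicate 4, the lowest of its group, it was 0.49 and passed the threshold in limma (adjusted *P* = 0.0184). The limma adjusted *P* reached 0.378 with single libraries left out in turn and 1 over all alternatives. *Flt1* was the member of the list with a difference of at least 0.41 at 4 months in both regions.

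*Tek* encodes TIE2, the receptor for angiopoietins, which keeps vessels quiescent (chr4:94627291-94763224, plus strand). Its PH signal in the intact libraries was 600, 567, 696 and 582, and it lay between 565.5 and 797 at 14 days and between 470.2 and 769 at 4 months. All 3 groups overlapped. PH log2 fold changes were 0.11 ± 0.14 and -0.01 ± 0.14, and POA ones were -0.05 ± 0.08 and -0.11 ± 0.08. The 95% interval at 4 months ran from -0.29 to 0.28 in the PH and from -0.28 to 0.06 in the POA.

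The transporter genes formed the third group. *Slco1a4* encodes the organic anion transporter OATP1A4, found on brain capillaries (chr6:141751165-141802036, minus strand). In the POA its signal was 2670.5, 2221, 2093, 2215 and 2044 in the intact libraries. It lay between 1850.2 and 2155 with a median of 2056 at 14 days, and between 1728 and 2336 with a median of 1962 at 4 months. No OVX library exceeded the highest intact one, and 4 of 6 libraries at 4 months lay below all intact ones. Fitted differences were -0.17 ± 0.07 at 14 days and -0.18 ± 0.07 at 4 months, with adjusted *P* values of 0.799 and 0.428, and they were negative within both batches at both times, between -0.12 and -0.22. In the PH, with intact values between 2062 and 2329, the log2 fold changes were -0.07 ± 0.13 and -0.08 ± 0.13.

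*Abcb1a* encodes P-glycoprotein, the efflux pump that returns drugs and toxins to the blood (chr5:8710022-8798575, plus strand). Its PH signal was 1255, 1196, 1469.8 and 1388 in intact libraries, between 1370.3 and 1726 at 14 days and between 1177 and 2246 at 4 months. At 14 days 5 of 6 libraries lay above all intact ones, whereas at 4 months 3 of 6 did and 1 lay below them. The log2 fold changes were 0.27 ± 0.15 and 0.23 ± 0.14, with adjusted *P* values of 1 and 0.87. POA groups overlapped, with 0.09 ± 0.07 and 0.12 ± 0.07.

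*Mfsd2a* encodes the carrier that takes lysophosphatidylcholine with docosahexaenoic acid into the brain and is known to hold transcytosis low (chr4:122840643-122855244, minus strand). In the POA its signal was 673.5, 691, 815, 695 and 864 in intact libraries, between 554 and 702 with a median of 595 at 14 days, and between 534.4 and 954 with a median of 681 at 4 months. At 14 days 4 of 6 libraries lay below all intact ones and none above them. Log2 differences were -0.26 ± 0.12 at the earlier and -0.14 ± 0.12 at the later time, with adjusted *P* values of 0.806 and 0.797. In the PH the intact libraries had 544, 756, 761 and 721, and the log2 fold changes were -0.12 ± 0.15 and -0.04 ± 0.15. The 4-month PH value was -0.23 within batch 1 and 0.23 within batch 2.

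*Apold1* encodes a small protein of the endothelial junction and cell surface that is known as an immediate early gene of vascular cells (chr6:134958681-134963810, plus strand). In the PH its signal was 285, 251, 264 and 499 in the intact libraries. It lay between 243 and 350.3 with a median of 290 at 14 days, and between 408 and 819 with a median of 576 at 4 months. All 6 4-month libraries lay above all 6 14-day libraries, whereas intact replicate 4 reached into the 4-month range and left 4 of 6 above all intact ones. The log2 fold change was -0.06 ± 0.21 at 14 days, 0.88 at 4 months against intact (95% interval 0.46 to 1.30, adjusted *P* = 0.208) and 0.94 at 4 months against 14 days (0.54 to 1.34, adjusted *P* = 0.215). Against intact it was 1.20 within batch 1 and 0.58 within batch 2. Without intact replicate 4 it was 1.11 and passed the threshold in limma (adjusted *P* = 0.0467). With single libraries left out in turn the limma adjusted *P* reached 0.644, and over all alternatives it reached 1.

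Intact POA libraries had an *Apold1* signal of 379, 358, 586, 446 and 369.9, and the 4-month libraries lay between 314 and 745 with a median of 462. The 14-day libraries, between 219 and 438, included 3 below all intact ones. The groups overlapped, and the log2 fold changes were -0.34 ± 0.24 at 14 days, 0.16 ± 0.24 at 4 months and 0.50 ± 0.23 between the times (adjusted *P* = 0.967). Against intact at 4 months it was 0.40 within batch 1 and 0.03 within batch 2.

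*Tns2* encodes tensin-2, an adaptor that links integrins at focal adhesions to the actin cytoskeleton (chr15:102008848-102024837, plus strand). In the PH its signal was 727, 745, 695 and 811 in the intact libraries, between 627 and 1079.8 with a median of 949 at 14 days, and between 948 and 1287 with a median of 1112 at 4 months. The 6 4-month libraries lay above all intact ones, whereas the 14-day libraries spanned both groups, with 4 of 6 above all intact ones and 1 below. The log2 fold change was 0.18 ± 0.12 at 14 days, 0.60 at 4 months against intact (95% interval 0.36 to 0.84, adjusted *P* = 0.0841) and 0.42 ± 0.11 between the times (adjusted *P* = 0.56). This made *Tns2* number 12 of 21998 genes by *P* at 4 months. The 4-month value against intact was 0.72 within batch 1 and 0.44 within batch 2. It passed the threshold in limma without the 14-day replicate 6 (0.59, adjusted *P* = 0.0344). Single libraries left out in turn gave limma adjusted *P* values up to 0.329, whereas over all alternatives the adjusted *P* reached 1.

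Intact POA libraries had a *Tns2* signal of 901, 621, 783, 1174.5 and 776, and the OVX libraries lay between 698 and 1098 at 14 days and between 556 and 1184 at 4 months. Fitted values were 0.14 ± 0.21 at 14 days and 0.01 ± 0.21 at 4 months, the latter with an interval of -0.44 to 0.46. The 4-month value had opposite signs in the batches, 0.49 within batch 1 and -0.39 within batch 2.

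Groups that did not overlap were counted as well. At 4 months against intact in the PH, 1 of the 10 genes, *Tns2*, had all OVX libraries on 1 side of all intact ones, where 0.95% of all genes did. At 4 months against 14 days in the PH, 1 of the 10, *Apold1*, did so, where 0.236% of all genes did. In the other 4 comparisons 0 of the 10 genes did. The share of all genes was 0.573% for the PH at 14 days, and POA shares were 0.412% at 14 days, 0.665% at 4 months and 0.112% between the times.

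Whether PH and POA changes differed was tested with an interaction term over all 33 libraries, with 22141 genes tested. None of the 10 genes was called, where 0.00452% of all genes were called for the 14-day change, 0.00903% for the 4-month change and 0% for the change between the times. The PH change at 4 months exceeded the POA change by 0.69 for *Apold1* (95% interval 0.02 to 1.37) and by 0.60 for *Tns2* (0.11 to 1.10), each with an adjusted *P* of 1. For *Flt1* the difference between the regions was 0.17 (-0.19 to 0.53). At an unadjusted *P* under 0.05, 0 of the 10 passed at 14 days (background 2.99%), 2 at 4 months, *Apold1* and *Tns2* (background 3.6%), and 1 between the times, *Tns2* (background 2.4%). As the plot of fitted differences shows, the point estimate was larger in the PH for 10 of 10 genes at 14 days. At 4 months it was larger for 9 of 10. Over all genes tested it was larger in the PH for 49.6% at 14 days and 49.3% at 4 months. These estimates share their intact libraries and the 10 genes share vessels, so they are not separate tests.

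**Figure D2:**
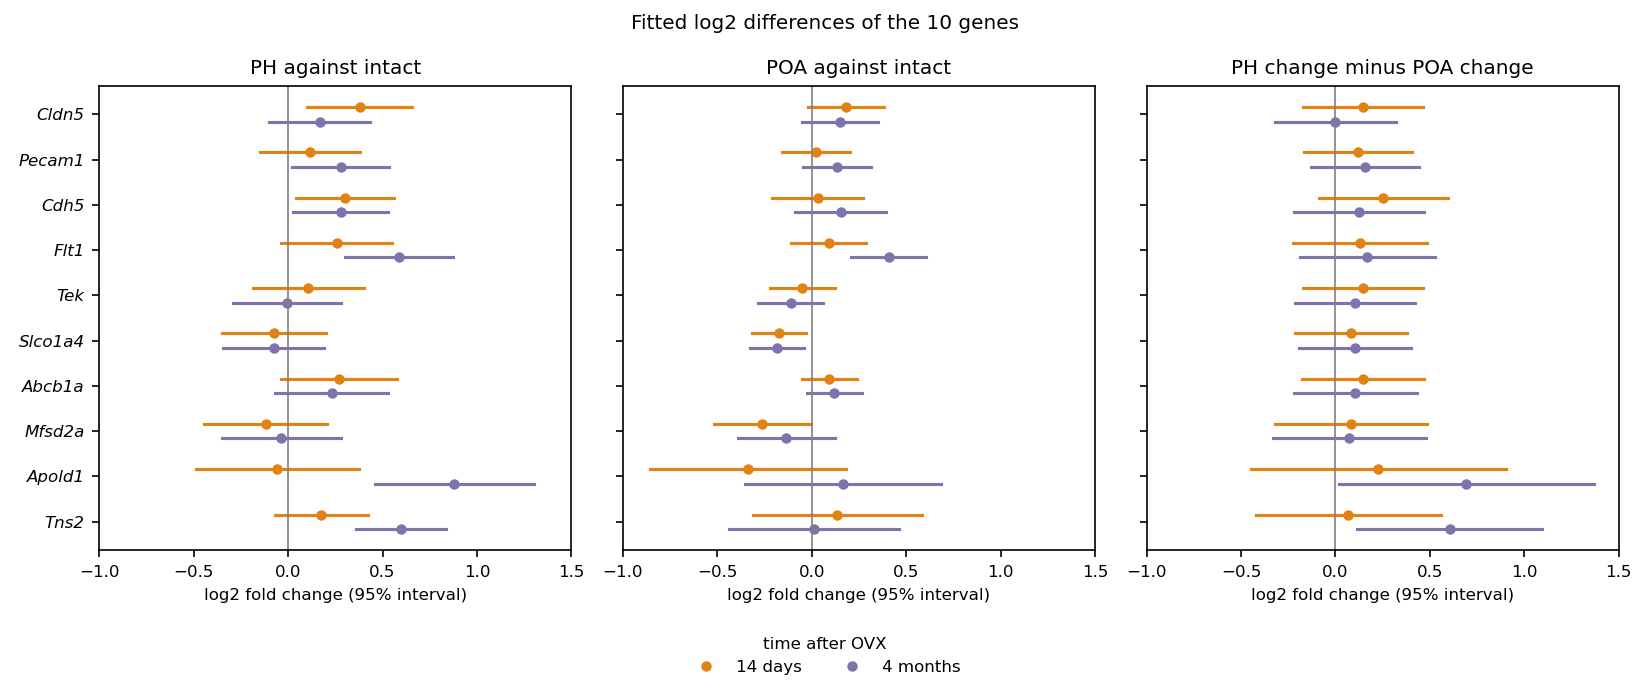
Fitted log2 fold changes with 95% intervals (x axes) of the 10 genes (y axis) against intact in the PH, in the POA, and as the difference of the PH and POA changes, at 14 days (orange) and 4 months (purple). Zero is marked by the vertical line, and in the PH at 4 months the intervals of *Apold1*, *Tns2* and *Flt1* lie farthest above it, from 0.46, 0.36 and 0.30 upward.

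The promoters of the 3 genes with the largest 4-month differences in the PH are shown so that their sequence can be read beside these values. Each is the 300 bases before the start of the gene's canonical transcript in GENCODE M39, read from GRCm39 5′ to 3′ on the gene's strand, with the core letters of ETS family sites, GGAAG or its reverse complement CTTCC, in capitals. ETS factors are transcription factors that many endothelial genes use. The windows are chr5:147662822-147663121 on the minus strand for *Flt1*, chr6:134958381-134958680 on the plus strand for *Apold1* and chr15:102011062-102011361 on the plus strand for *Tns2*, whose canonical start lies inside the annotated gene.
Flt1: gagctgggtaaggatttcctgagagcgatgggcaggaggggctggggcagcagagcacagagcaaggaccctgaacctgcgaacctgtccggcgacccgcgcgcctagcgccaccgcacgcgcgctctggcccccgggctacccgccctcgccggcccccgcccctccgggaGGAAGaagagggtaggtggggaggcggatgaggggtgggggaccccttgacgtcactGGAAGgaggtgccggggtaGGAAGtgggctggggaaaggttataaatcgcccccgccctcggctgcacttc
Apold1: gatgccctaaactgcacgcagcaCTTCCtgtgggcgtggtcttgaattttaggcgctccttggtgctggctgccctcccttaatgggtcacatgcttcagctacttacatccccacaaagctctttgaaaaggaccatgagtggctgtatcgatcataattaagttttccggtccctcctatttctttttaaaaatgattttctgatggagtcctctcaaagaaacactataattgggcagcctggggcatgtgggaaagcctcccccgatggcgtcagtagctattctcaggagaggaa
Tns2: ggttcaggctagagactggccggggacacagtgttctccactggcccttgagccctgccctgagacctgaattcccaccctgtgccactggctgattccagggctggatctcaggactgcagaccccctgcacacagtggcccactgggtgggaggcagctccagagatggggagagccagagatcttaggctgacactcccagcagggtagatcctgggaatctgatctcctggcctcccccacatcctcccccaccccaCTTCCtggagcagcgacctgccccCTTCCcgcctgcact

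The *Flt1* window held 3 ETS cores, at 128, 71 and 52 bases before the start, and 2 overlapping matches to the cyclic AMP response core TGACG, at 81 and 78 bases, which are the 2 strands of a palindrome. *Apold1* held 1 ETS core at 277 bases and 1 TGACG match at 27 bases. *Tns2* held ETS cores at 39 and 15 bases and the glucocorticoid receptor core AGAACA at 269 bases. Over the 10 genes and both strands, 6 windows held an ETS core, which 69.3% of 21757 protein-coding promoters of the same length held, and 6 held an E-box, CANNTG, against 71.5%. The TGACG core was in 2 of 10 windows against 19.9%, AGAACA in 1 against 17.7%, the AP-1 motif TGANTCA in 1, that of *Abcb1a*, against 7.38%, and the serum response element core, the CArG box, in 0 against 1.7%. The estrogen receptor half-site AGGTCA was in 3 windows, those of *Tek*, *Abcb1a* and *Mfsd2a*, against 15.9% of all promoters. A match is a description of letters and not a site in use.

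Within groups, after group means and SV1 were removed, the 10 genes varied together in part in the PH and less so in the POA. The 45 pairs had a median Pearson r of 0.25 in the PH (16 libraries, 33 pairs positive) and of 0.04 in the POA (17 libraries, 24 pairs positive). In the PH the closest pairs were *Tek* with *Slco1a4* (r = 0.84), *Tek* with *Abcb1a* (r = 0.76) and *Cldn5* with *Flt1* (r = 0.70). In the POA they were *Tns2* with *Cdh5* (r = 0.71), *Pecam1* with *Tns2* (r = 0.62) and *Pecam1* with *Flt1* (r = 0.61). *Abcb1a* followed the mean of the other 9 genes most closely in the PH (r = 0.86) and *Tns2* in the POA (r = 0.72), whereas *Tns2* had an r of -0.19 in the PH and *Mfsd2a* had -0.38 in the POA. These are descriptions across libraries that share tissue pieces, dissection and normalization.

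**Figure D3:**
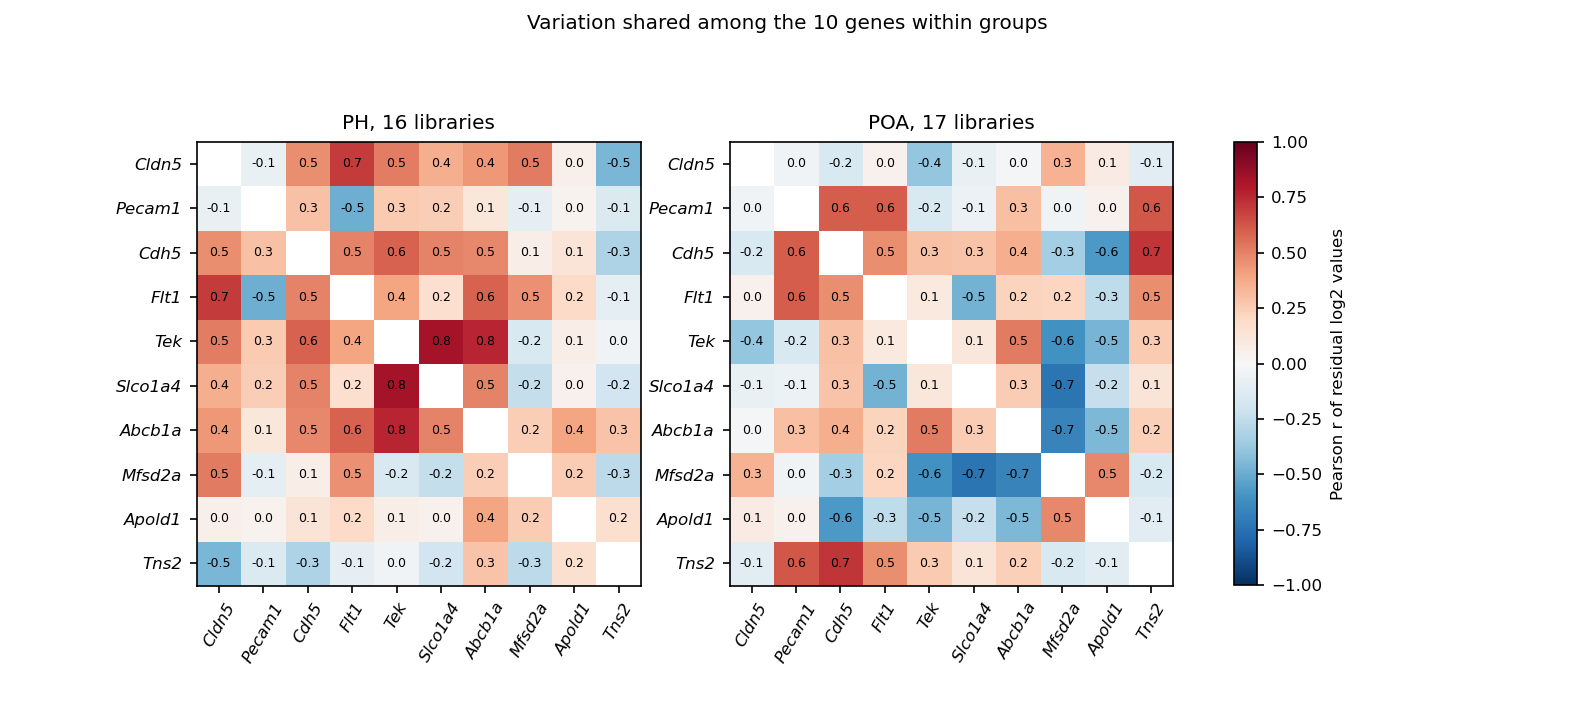
Pearson r between the residual log2 values of each pair of the 10 genes in the PH (16 libraries) and the POA (17 libraries), with red for positive and blue for negative values. *Tek* with *Slco1a4* reaches 0.84 in the PH, and *Mfsd2a* with *Slco1a4* falls to -0.73 in the POA.

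Among 15864 other protein-coding genes, the 10 whose residuals were most like the mean of the 10 genes in both regions were *Fn1*, *Atp11a*, *Zfp36*, *Sox13*, *Vtn*, *Appl2*, *Atp10a*, *Med12*, *Or5b124* and *Lrrc32*, ranked by the lower of 2 correlations. *Fn1* (fibronectin) had a PH r of 0.72 and a POA r of 0.80, and *Lrrc32* had 0.64 and 0.74. *Vtn* (vitronectin, made by pericytes) and *Atp10a* are on the mural cell and barrier transporter lists. When group means alone were removed, 2 of these 10, *Fn1* and *Or5b124*, were again among the 10.

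Other genes of the endothelium were read from lists chosen with results of these data known. Of the endothelial identity list, 25 of 27 genes were tested and 0 were called in any comparison. At 4 months in the PH, 24 of the 25 had positive log2 fold changes, with a median of 0.24 against -0.01 over all genes. In the POA 19 of 25 did, with a median of 0.17. Over all genes tested, 47.2% (PH) and 46.5% (POA) were positive, which is also the background of the positive counts given for later lists. Genes of a list share libraries. *Cd34*, a sialomucin of the endothelial surface, had PH and POA values of 0.54 ± 0.12 and 0.42 ± 0.09 (adjusted *P* of 0.189 and 0.0722). Its 6 4-month libraries lay above all intact ones in each region, where 0.95% (PH) and 0.665% (POA) of all genes did not overlap. *Cd34* was named for the smallest *P* of its list, a choice that favors such separation. *Pglyrp1*, a peptidoglycan recognition protein that marks brain endothelium, had 0.90 ± 0.25 in the PH (adjusted *P* = 0.42), and *Adgrl4*, an endothelial adhesion G protein-coupled receptor, had 0.32 ± 0.11 in the POA (adjusted *P* = 0.357).

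Of the VEGF and angiopoietin list, 0 of 15 genes were called, and 11 of 15 had positive values at 4 months in each region, with medians of 0.13 (PH) and 0.09 (POA). *Kdr*, the main signaling VEGF receptor, had PH and POA values of 0.59 ± 0.13 and 0.65 ± 0.17 (adjusted *P* of 0.162 and 0.208). *Dll4*, the Notch ligand of tip cells, had 0.68 ± 0.21 and 0.67 ± 0.18. Both were named for the smallest *P* of this list in each region, a choice that favors large differences. Of 10 tested endothelial activation genes, 0 were called, with 4-month medians of 0.37 (PH) and 0.31 (POA). *Icam1*, the leukocyte adhesion molecule, had 0.57 ± 0.15 in the PH (adjusted *P* = 0.348) and *Vwf*, von Willebrand factor, 0.68 ± 0.24 (adjusted *P* = 0.638). *Edn1*, the vasoconstrictor endothelin-1, had 0.55 ± 0.11 in the POA (adjusted *P* = 0.0722), and *Ptgs2*, cyclooxygenase-2, had 0.78 ± 0.19 (adjusted *P* = 0.2).

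Among the lists closest to the barrier itself, none of 12 further junction genes, 18 barrier transporters, 19 genes of the Wnt barrier programme or 10 genes of caveolae, transcytosis and fenestrae was called. Their 4-month medians were 0.11, 0.04, 0.05 and 0.18 for the PH. POA medians were 0.03, 0.01, 0.02 and 0.10. *Tfrc*, the transferrin receptor that brings iron across the barrier, had PH and POA values of -0.42 ± 0.11 and -0.30 ± 0.08 (adjusted *P* of 0.35 and 0.2), and *Abcc4*, an efflux pump, had 0.42 ± 0.12 in the PH (adjusted *P* = 0.42). *Slc7a5*, the large neutral amino acid transporter, had -0.19 ± 0.07 in the POA (adjusted *P* = 0.439). *Esam* and *Cldn12*, the junction genes with the smallest *P* in the PH, had 0.24 ± 0.14 and -0.18 ± 0.10, and *Lsr* had 0.16 ± 0.12 in the POA. *Foxq1* and *Ctnnb1* of the Wnt list had PH values of 0.36 ± 0.18 and -0.19 ± 0.11, and *Foxq1* and *Apcdd1* had POA values of 0.34 ± 0.12 and -0.18 ± 0.08. *Cav1*, the caveola coat protein, had 0.47 ± 0.14 in the PH and 0.36 ± 0.11 in the POA, *Cav2* had -0.31 ± 0.12 in the PH and *Cavin1* 0.33 ± 0.12 in the POA.

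**Figure D4:**
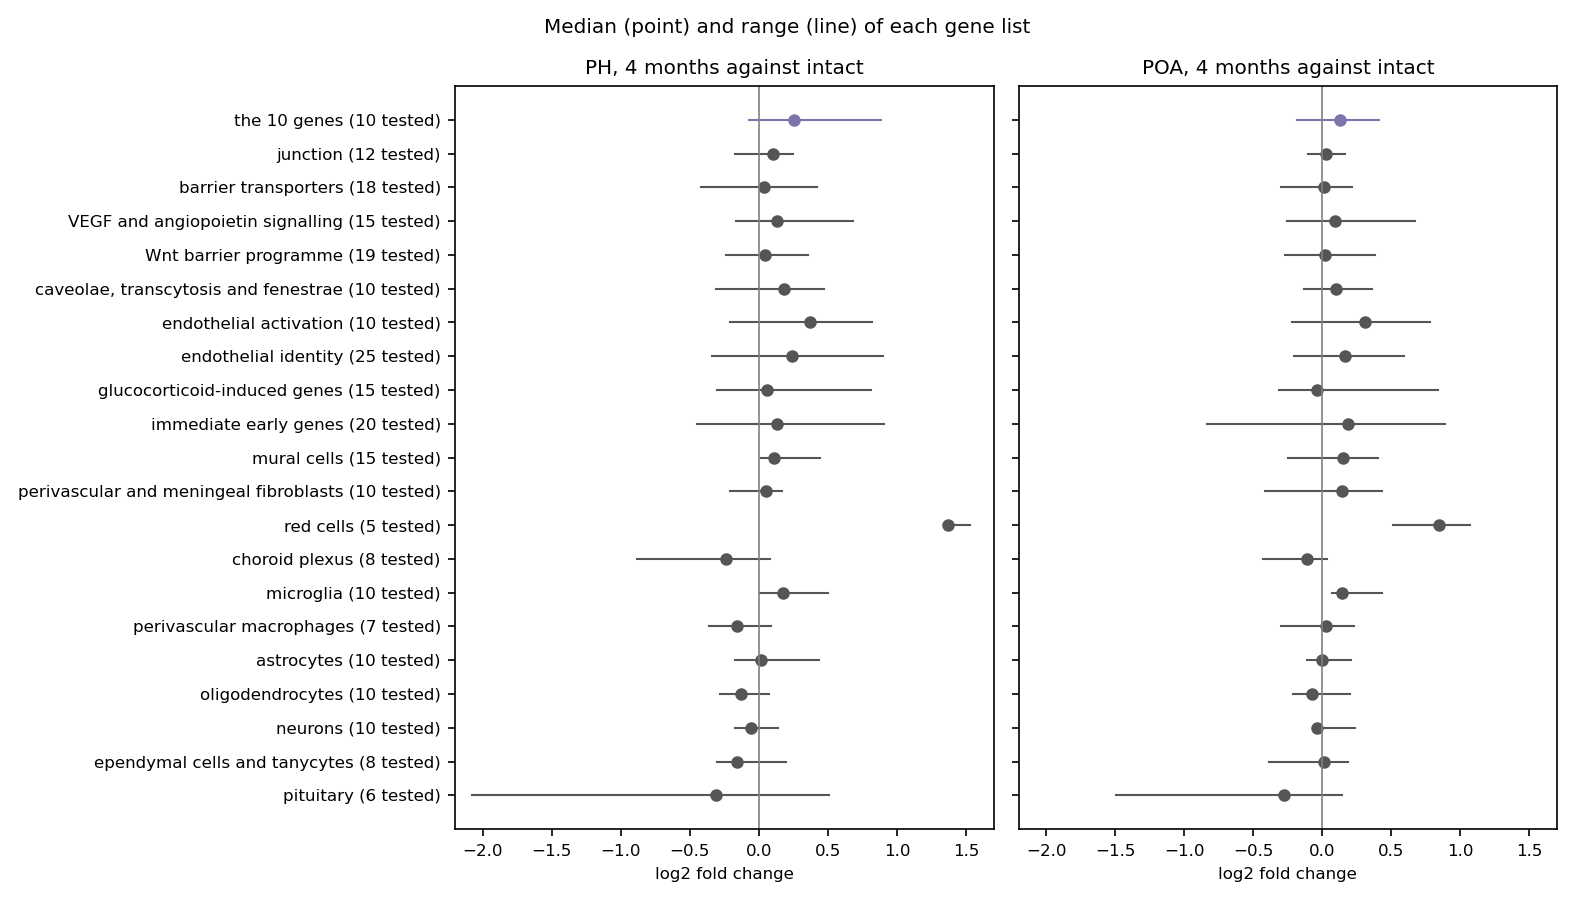
Median (point) and range (line) of the log2 fold change (x axes) at 4 months against intact for each gene list (y axis, with the number of genes tested in the PH) in the PH and the POA. The 10 genes, in purple, have medians of 0.25 and 0.13, and the red cell list has medians of 1.37 and 0.85.

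Immediate early genes were the list with most calls, all in the POA, and this list too was chosen with results of these data known. *Apold1* is known to belong to this class in vessels, and whether its values go with these genes was not tested. In the POA, *Btg2* (0.89 ± 0.11, adjusted *P* = 0.00192), *Dusp1* (0.68 ± 0.09, adjusted *P* = 0.00265) and *Npas4* (0.74 ± 0.14, adjusted *P* = 0.0428) rose at 4 months against intact, and the same 3 rose against 14 days (0.95, 0.69 and 0.91). In the PH, 0 of 20 were called, and *Klf2*, a flow-responsive endothelial factor on this list, had 0.78 ± 0.15 at 4 months (adjusted *P* = 0.108) and *Npas4* 0.90 ± 0.21 (adjusted *P* = 0.208). List medians at 4 months against intact were 0.13 (PH) and 0.18 (POA). In each region 12 of the 20 genes were higher and 8 lower than intact, and the lowest POA value was -0.84. Of 15 glucocorticoid-induced genes, *Depp1* rose in the POA at 4 months against intact (0.84 ± 0.15, adjusted *P* = 0.0428) and against 14 days (0.84 ± 0.14, adjusted *P* = 0.0323). Among the others, *Depp1* and *Pdk4* had 0.81 ± 0.26 and 0.33 ± 0.11 in the PH and *Per1* had -0.31 ± 0.10 in the POA. The glucocorticoid list as a whole had medians of 0.06 (PH) and -0.04 (POA) at 4 months against intact. Of its 15 genes, 6 were lower in the PH and 10 in the POA. Without a covariate, 1 gene of all these lists and the marker lists was called at 4 months against intact in the POA in place of 5.

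Markers of other cells of the vessel and its contents are given beside these values, and their part in them was not tested. Of them, 1 red cell gene in the PH and 1 microglia gene in the POA were called at 4 months against intact. Red cell genes had the largest differences, with 5 of 5 positive at 4 months in each region and medians of 1.37 (PH) and 0.85 (POA). *Alas2*, the heme synthesis enzyme of erythroid cells, rose in the PH at 4 months (1.37 ± 0.22, adjusted *P* = 0.0301), and *Hbb-bt*, a β-globin gene that is nearly identical to *Hbb-bs*, had 1.53 ± 0.30 (adjusted *P* = 0.14). The summed signal of the red cell list lay between 6507 and 8426 in intact PH libraries and between 12093 and 37251 at 4 months, without overlap. Of single genes tested, 0.95% had groups without overlap in this comparison. In the POA the sum lay between 7050 and 16431 in intact and between 9569 and 22657 in 4-month libraries, with overlap. The summed signal of the 10 endothelial genes lay between 10416 and 11395 in intact PH libraries, 10961 and 13919 at 14 days and 11837 and 16777 at 4 months, and in the POA between 10843 and 11831, 11086 and 12018, and 10961 and 14439.

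For mural cells, the pericytes and smooth muscle around vessels, 0 of 15 genes were called, 15 of 15 were positive at 4 months in the PH with a median of 0.11, and 10 of 15 in the POA with a median of 0.15. *Vtn* had 0.30 ± 0.09 and *Abcc9* 0.44 ± 0.16 in the PH, and *Abcc9* and *Rgs5* had 0.40 ± 0.13 and 0.21 ± 0.07 in the POA. Their summed signal lay between 9642 and 10912 in intact and between 9189 and 13705 in 4-month PH libraries. Of the microglia list, *C1qa*, a complement component, rose in the POA at 4 months (0.43 ± 0.08, adjusted *P* = 0.0428), 10 of 10 genes were positive in each region, and the summed signal lay between 14333 and 15752 in intact and 15878 and 18067 in 4-month PH libraries. Fibroblast genes, 10 in number, had 0 calls and 4-month medians of 0.05 (PH) and 0.14 (POA), and 7 perivascular macrophage genes had 0 calls and medians of -0.16 and 0.02.

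Markers of the surrounding tissue had 0 calls. At 4 months, 10 astrocyte genes had medians of 0.02 (PH) and -0.0042 (POA), 10 oligodendrocyte genes -0.13 and -0.07, 10 neuronal genes -0.05 and -0.04, 8 ependymal and tanycyte genes -0.16 and 0.01, and 8 choroid plexus genes -0.24 and -0.11. The choroid plexus sum ranged from 2715 to 81811 over the PH libraries and from 3554 to 88809 over the POA libraries, so single pieces carried very different amounts of it in every group. Pituitary genes, with 6 of 8 tested, had a median of 1.99 in the POA at 14 days, where their sum lay between 503 and 10815 against 407 to 2144 in intact libraries. The pituitary has fenestrated vessels, and its part in the 14-day POA values of the 10 genes was not tested.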

How the data were processed

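Libraries were made by the authors from poly(A) RNA of flash-frozen PH and POA with a stranded kit. Reads were pseudoaligned with kallisto to mm39 and tested by the authors with DESeq2. The authors deposited 1 table of normalized signal on a linear scale, and how these values were derived is not given in the sources used here. They are decimal and never reach 0, so they are not counts, neither depth nor counting error can be recovered, and the floor in every value shrinks fold changes of weakly expressed genes.

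Log2 values of the deposited signal were used with no pseudocount. Entries lacking a gene name, 1259 in all, were dropped, and the table holds no columns of comparisons by the authors. Tested genes had at least 4 PH or 5 POA libraries at 2 times the floor or more. The test was limma (version 3.58.1, R 4.3.3), two-sided, with trend and robust variance, with group and SV1 in the model of each region, SV1 being estimated in 5 rounds of iteratively reweighted surrogate variable analysis written in base R. It was tested on simulated data. Intervals are 95% intervals of limma, and errors are SE unless SD is named. Region differences were an interaction in 1 fit of 33 libraries. Positions, gene types and promoters came from GENCODE M39 on GRCm39, where all 10 symbols matched. Figures used Python 3.11.15 with matplotlib 3.10.9.

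The 10 genes and the gene lists were chosen with earlier results of these data known. Besides the 10, the genes named from each list are those called in any comparison and the 2 with the smallest P at 4 months against intact in each region. A gene that this rule would name is not reported here. Library sums, *Pmch*, *Gal*, *Agrp*, *Hcrt* and the summed list signals were described after their values were seen. Library numbers were not treated as pairs.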

Additional observations from a re-analysis of the deposited data

Results flagged for a closer look

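Outlying libraries were looked for in the 60 groups of values (10 genes, 6 groups) with Dixon's test at 95%, and 3 groups held one, as many as the 1 in 20 that chance gives. *Cldn5* in the PH intact replicate 1 had a signal of 438, with the nearest intact library at 697. *Mfsd2a* was lowest in the same library, at 543.9, with the nearest at 720.6. *Flt1* in the POA intact replicate 2 had 3114, with the nearest at 2613.5. The cause was not tested.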

How the results depend on the processing

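The number of the 10 genes called was 0 in all 9 comparisons and stayed 0 in 7 of them under every alternative run. The alternatives were SV1 replaced by batch, no covariate, SV1 with batch, the replicate block, only the groups compared (region fits), log2(value + 100), no filter on low values, library medians set equal, limma without trend and robust variance, protein-coding genes only, each batch alone and each library left out. Leaving out 1 library gave 0 to 1 called genes at 4 months against intact in the PH (*Tns2* without the 14-day replicate 6, *Flt1* without the 4-month replicate 2, *Apold1* without intact replicate 4) and 0 to 1 in the POA (*Flt1* without the 4-month replicate 4). An alternative chosen after seeing the data, batch in place of SV1 without the PH 14-day replicate 5, gave 1 at 4 months in the PH (*Tns2*). Of 3090 log2 fold changes of single genes under alternatives, 3029 moved by less than the SD between libraries and 56 by more, and 5 passed the threshold with the same sign.

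With the replicate block, 0 of the 10 genes were called in every comparison, and over all genes the calls went from 20 to 1 at 4 months against intact in the POA. Same-numbered libraries of a region correlated above 0.1 in 9 of 14 PH and 14 of 16 POA pairs (median r 0.154 and 0.255), against 20 of 70 and 32 of 80 pairs with different numbers (median r -0.051 and -0.155). PH and POA libraries of a group with the same number did so in 14 of 16 pairs (median r 0.231), against 25 of 76 with different numbers (-0.064). Same-numbered libraries thus deviated together more often, but not in every pair. Most same-numbered libraries also shared a batch, and batch was not removed from these deviations. The pairs were not split by batch, so whether number mattered apart from batch was not tested. The labels tie a number to no mouse or day, and pairing was not part of the design. The fit of both regions treats the 33 libraries as independent, and with PH and POA libraries of the same group and number as a block it also called 0 of the 10 genes. Calls over all genes at 4 months in the PH were 7, with 3 under batch in place of SV1, 4 without a covariate and 9 with SV1 and batch together. In the POA they were 20, with 21, 2 and 16. Of the genes of the other lists, 1 in place of 5 was called without a covariate at 4 months against intact in the POA, and 1 in place of 4 at 4 months against 14 days. The unknown depth limits all these values.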
